A study of Mus musculus with 40 samples.

Results

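Basophils and mast cells are followed here in mouse lung through 6 genes: Mcpt8, Hdc, Cpa3, Cma1, Ms4a2 and Kit. Every probe set that the platform annotation assigns to 1 of these symbols was taken, which gave 8 probe sets of 6 genes among the 22626 probe sets tested, and 12393 genes, on the arrays. Hdc and Kit each have a pair of probe sets and the other 4 genes have 1. The arrays are one-colour Affymetrix arrays of whole-lung RNA, 40 in all, in 8 groups of 5. The groups are C3H lungs 24 h after aspiration of allergen, C3H lungs 24 h after PBS (phosphate-buffered saline), C3H lungs 6 h after allergen, C3H lungs 6 h after PBS, and the same 4 treatments and times in the AJ strain, which the labels call hyperresponsive. The allergen was given in PBS, so all 8 groups received PBS. Titles name the allergen OVA and descriptions name it HDM, and it is called allergen below. Strain follows the titles, 20 of which carry C3H, because the descriptions give AJ for all 40 arrays. Age and sex are not given in the sources used here. The labels number the arrays of a group but tie no number to a mouse, so the spread behind the p-values is that between these samples and may be technical.

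Basophils and mast cells both carry the high-affinity IgE receptor, FcεRI, and release histamine and proteases when allergen crosslinks the IgE bound to it. Mast cells reside in tissue, depend on the receptor Kit and its ligand, and store chymases, tryptases and carboxypeptidase A3 in their granules. Basophils circulate and enter inflamed tissue, and in the mouse they express Mcpt8, a serine protease named for its relatives in mast cells and used as a basophil marker. Mcpt8 and Cma1, a mast cell chymase, lie on chromosome 14 in a cluster of related protease genes, with 5 protein-coding genes between them in the RefSeq annotation (Cma2, Mcpt1, Mcpt2, Mcpt9 and Mcpt4). Cpa3, the mast cell carboxypeptidase, lies on chromosome 3.

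The labelled tissue was checked first. All 7 lung epithelial markers were measured, and their summed intensity lay between 23480.9 and 37880.6 on the 40 arrays. All arrays correlated with each other at 0.875 to 0.985 across probe sets, and array medians lay between 63.8 and 81.4 intensity units. Precision is limited by the 5 arrays of each group. Levels are given below as intensity, and differences as log2(intensity + 16) with the standard error (SE) of limma's fit to all 40 arrays. A probe set is said to have risen or fallen where its Benjamini-Hochberg adjusted p over all 22626 probe sets was under 0.05, two-sided.

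The upstream sequences of Mcpt8, Cma1 and Cpa3 are shown because the text below sets the basophil protease against the other 2. Each is the 250 bases before the annotated start in RefSeq (GRCm38.p6, minus strand, written 5′ to 3′). Capitals mark GATAA on either strand, a form of the site bound by GATA factors, which act in both cell types. Only this form was searched for, so the matches are not a count of all GATA sites.
Mcpt8, chr14:56085198-56085447: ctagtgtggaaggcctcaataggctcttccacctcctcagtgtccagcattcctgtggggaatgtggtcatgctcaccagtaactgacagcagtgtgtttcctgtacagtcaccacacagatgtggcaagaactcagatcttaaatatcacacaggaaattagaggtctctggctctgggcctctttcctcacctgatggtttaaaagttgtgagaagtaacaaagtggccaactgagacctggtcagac
Cma1, chr14:55944676-55944925: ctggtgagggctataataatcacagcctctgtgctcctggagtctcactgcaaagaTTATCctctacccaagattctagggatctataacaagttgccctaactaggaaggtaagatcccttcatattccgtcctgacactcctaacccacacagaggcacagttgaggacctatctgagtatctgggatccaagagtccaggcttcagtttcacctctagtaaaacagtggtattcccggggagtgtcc
Cpa3, chr3:20242182-20242431: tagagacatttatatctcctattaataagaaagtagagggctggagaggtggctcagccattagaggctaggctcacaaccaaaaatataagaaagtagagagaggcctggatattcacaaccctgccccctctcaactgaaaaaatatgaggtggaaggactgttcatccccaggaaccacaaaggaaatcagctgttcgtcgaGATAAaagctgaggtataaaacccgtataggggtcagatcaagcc
The Cpa3 window holds 1 match, 45 to 41 bases before the start. The Cma1 window holds 1 match on the other strand, written TTATC, 194 to 190 bases before the start. The Mcpt8 window holds 0, as do those of Hdc and Kit, while that of Ms4a2 holds 3. Of 32851 RefSeq windows of the same length, 22.6% hold GATAA on either strand. The motif TTCNNNGAA, the spaced palindrome bound by STAT5, had 0 matches in the windows of all 6 genes and occurs in 7.02% of all windows. With no match to TTCNNNGAA, the motifs did not overlap in these windows.

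Mcpt8, the basophil protease, rose after allergen in 3 of the 4 pairs of groups: C3H lungs at 6 h, AJ lungs at 24 h and AJ lungs at 6 h. It did not pass the test in C3H lungs at 24 h. Cpa3 and Cma1, taken here as mast cell proteases, passed it in none of the 4, and neither did Ms4a2. Hdc rose and Kit fell in AJ lungs at 6 h. Of the 8 probe sets, 0 passed in C3H lungs at 24 h (2.48% of all probe sets passed there), 1 in C3H lungs at 6 h (5.71% of all), 1 in AJ lungs at 24 h (5.8% of all) and 5 in AJ lungs at 6 h (15.7% of all). With 1 array left out, the number of all probe sets that passed ran from 203 to 925 in C3H lungs at 24 h, against 561 with every array, and in C3H lungs at 6 h it was 853 without allergen array 1, against 1292. In whole-lung RNA, a change in the number of cells of a type and a change in RNA per cell cannot be told apart.

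**Figure D1:**
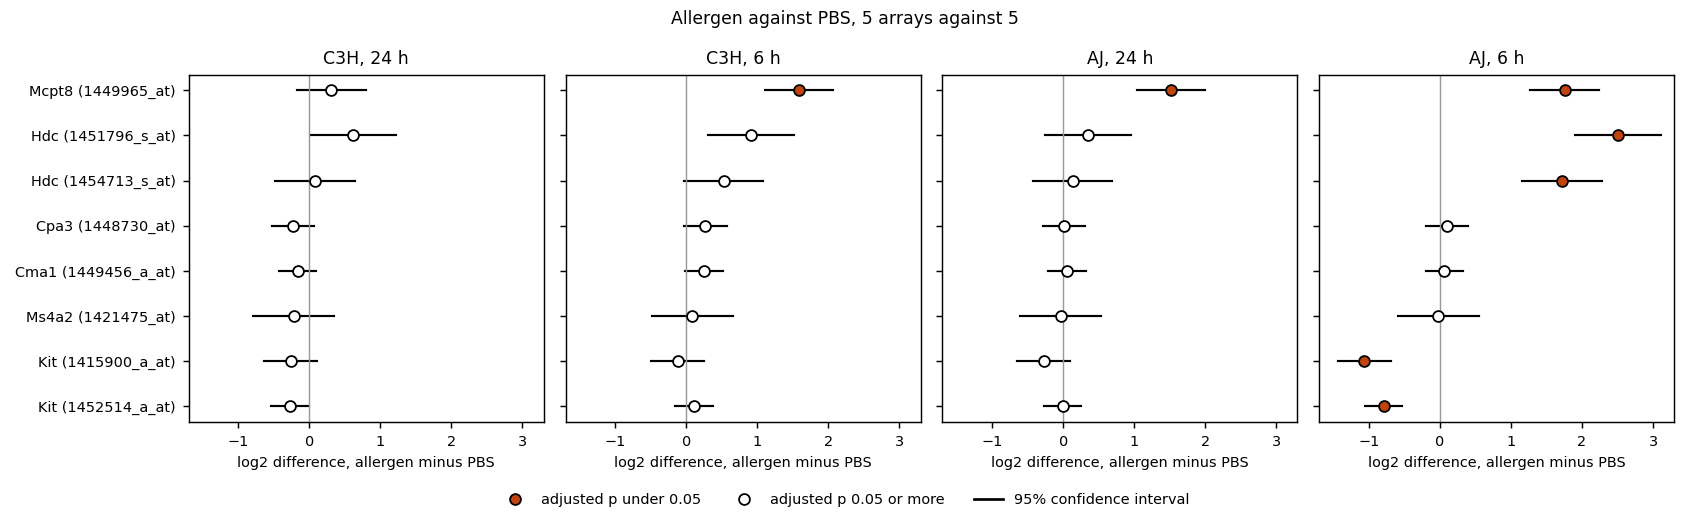
Log2 difference between allergen and PBS arrays (x axis, on the log2(intensity + 16) scale) for each of the 8 probe sets (rows) in the 4 pairs of groups, with 95% confidence intervals and filled points where the adjusted p was under 0.05. Mcpt8 lies at 1.59, 1.52 and 1.76 in the 3 pairs where it passed and at 0.31 in C3H lungs at 24 h, while Cpa3, Cma1 and Ms4a2 lie between -0.23 and 0.27 throughout.

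Mcpt8 was dim in lungs given PBS. After 6 h in AJ lungs its intensity was 61.3, 61.5, 63.6, 71.5 and 78.3 after allergen, against 2.19, 4.73, 5.41, 14.7 and 20.3 after PBS. All 5 allergen arrays lay above all 5 PBS arrays, and the difference was 1.76 ± 0.24 (adjusted p = 7.49e-07). The mean intensities were 67.2 ± 7.44 after allergen and 9.45 ± 7.67 after PBS (SD, n = 5 each). Groups failed to overlap in this comparison for 11.3% of all probe sets.

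The Mcpt8 intensity in AJ lungs at 24 h was 20.7, 37.8, 39.8, 47.5 and 113.0 after allergen, against 3.21, 4.41, 4.43, 5.33 and 11.4 after PBS. The groups did not overlap, as for 7.15% of all probe sets, and 1 allergen array stood above the other 4. The difference was 1.52 ± 0.24 (adjusted p = 2.85e-05), with mean intensities of 51.7 ± 35.6 after allergen and 5.76 ± 3.25 after PBS (SD, n = 5 each).

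C3H lungs at 6 h had Mcpt8 intensities of 40.9, 62.7, 70.7, 72.0 and 75.4 after allergen, against 3.28, 6.37, 7.04, 15.3 and 25.2 after PBS. These groups did not overlap either, which held for 4.76% of all probe sets there. The rise was 1.59 ± 0.24 (adjusted p = 1.86e-05), and the difference in response between strains at 6 h, C3H minus AJ, was -0.17 ± 0.34 (adjusted p = 0.909).

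C3H lungs at 24 h had 2.6, 7.36, 12.3, 14.0 and 27.5 after allergen, against 2.46, 4.51, 4.57, 6.42 and 15.2 after PBS. These Mcpt8 values overlapped, and 4 of the 5 allergen arrays were below 16. The difference was 0.31 ± 0.24 (95% confidence interval -0.17 to 0.795, adjusted p = 0.555).

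Among allergen lungs alone, Mcpt8 in C3H was lower at 24 h than at 6 h (difference -1.52 ± 0.24, adjusted p = 2.13e-05), with no overlap between the groups. The same step in AJ was -0.43 ± 0.24 (adjusted p = 0.265), with overlapping ranges, and it passed without AJ allergen array 5 at 24 h, the highest (-0.69, adjusted p = 0.0284). At 24 h after allergen, Mcpt8 was lower in C3H than in AJ lungs (difference -1.16 ± 0.24, adjusted p = 0.00141), with overlapping ranges, and this no longer passed in a fit to those 2 groups alone (adjusted p = 0.0511). The tests of the response itself did not pass: the difference between strains at 24 h was -1.21 ± 0.34 (adjusted p = 0.113) and the difference between times in C3H was -1.28 ± 0.34 (adjusted p = 0.0667). Both passed without C3H allergen array 4 at 24 h (intensity 27.5), at adjusted p = 0.0357 and 0.0267. The second also passed without C3H PBS array 3 at 6 h (0.0393) and without AJ allergen array 5 at 24 h (0.03).

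The size of these Mcpt8 changes depends on the pseudocount, since 22 of the 40 arrays read below 16, and no fold change is given for it. In C3H lungs at 6 h the log2 difference was 2.65 with a pseudocount of 1 and 0.77 with 64. In AJ lungs the corresponding values were 2.85 and 0.69 at 24 h, and 3.04 and 0.84 at 6 h. All 6 kept an adjusted p under 0.05. By mean level the 8 groups ran from AJ allergen 6 h through C3H allergen 6 h, AJ allergen 24 h and C3H allergen 24 h down to the 4 PBS groups, and each group's range overlapped that of the next.

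**Figure D2:**
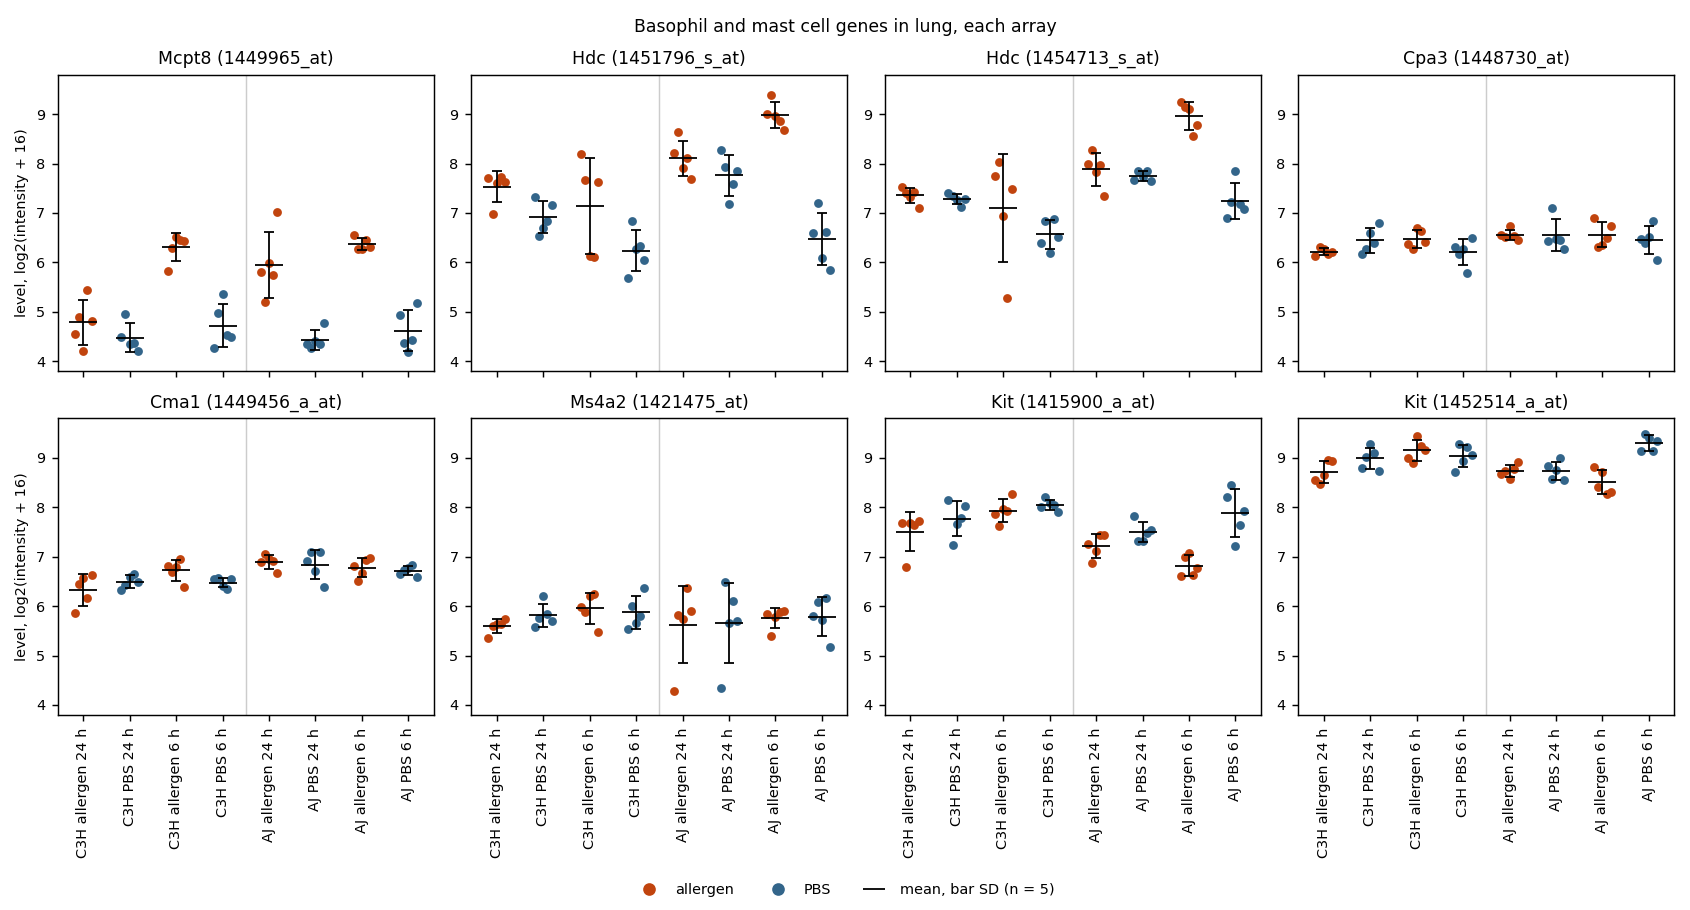
Level of each probe set as log2(intensity + 16) (y axis) on each of the 40 arrays, by strain, treatment and time, with the group mean and SD (n = 5). Mcpt8 lies above its PBS groups in C3H lungs at 6 h and in AJ lungs at both times, Hdc is highest and Kit lowest in AJ allergen lungs at 6 h, and Cpa3 and Cma1 overlap between allergen and PBS in all 4 pairs of groups.

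Cpa3, the mast cell carboxypeptidase, read between 39.1 and 122.0 on all 40 arrays. Its intensity in AJ lungs at 6 h was 63.6, 65.3, 73.6, 90.8 and 103.3 after allergen, against 50.5, 68.3, 73.2, 75.9 and 98.3 after PBS. The ranges overlapped, and the difference was 0.10 ± 0.15 (95% confidence interval -0.20 to 0.39, adjusted p = 0.766). The other differences were -0.23 ± 0.15 in C3H lungs at 24 h (adjusted p = 0.467), 0.27 ± 0.15 in C3H lungs at 6 h (0.343) and 0.01 ± 0.15 in AJ lungs at 24 h (0.988).

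Cma1, the mast cell chymase, read between 41.9 and 121.6. AJ lungs at 6 h had 74.8, 85.2, 96.5, 106.5 and 109.4 after allergen, against 80.8, 84.9, 89.6, 92.8 and 98.1 after PBS, a difference of 0.06 ± 0.13 (95% confidence interval -0.20 to 0.33, adjusted p = 0.845). The ranges overlapped. The other differences were -0.17 ± 0.13 in C3H lungs at 24 h (adjusted p = 0.571), 0.25 ± 0.13 in C3H lungs at 6 h (0.317) and 0.05 ± 0.13 in AJ lungs at 24 h (0.919). Over both proteases and all 4 comparisons, the 95% confidence intervals stayed between -0.52 and 0.57.

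Cma1 did differ among allergen lungs. At 24 h it had 41.9, 55.3, 71.3, 79.6 and 82.4 in C3H allergen lungs, against 85.2, 102.9, 104.2, 107.1 and 116.8 in AJ allergen lungs. All C3H arrays lay below all AJ arrays, and the difference was -0.56 ± 0.13 (adjusted p = 0.00517), which no longer passed in a fit to those 2 groups alone (adjusted p = 0.0557). Within C3H allergen lungs Cma1 was lower at 24 h than at 6 h (difference -0.40 ± 0.13, adjusted p = 0.0296), with overlapping ranges. This no longer passed without C3H allergen array 1 at 24 h, the lowest (-0.28, adjusted p = 0.146), without array 4 at 24 h (0.0692), or without array 1, 3 or 4 at 6 h (0.0672, 0.0532 and 0.0939). It also did not pass with quantile normalization (-0.31, adjusted p = 0.0756), median centring (-0.31, 0.0741) or a fit to those 2 groups alone (0.126). The strain difference among PBS lungs was -0.34 ± 0.13 at 24 h (95% confidence interval -0.61 to -0.08, adjusted p = 0.248) and -0.24 ± 0.13 at 6 h (0.351). For Cma1 the tests of the response itself did not pass. The C3H minus AJ difference at 24 h was -0.22 ± 0.18 (adjusted p = 0.694), and the difference between times in C3H was -0.42 ± 0.18 (0.315).

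Mcpt8 was then set against each mast cell protease on the same array, as the difference of the log2 levels, and that quantity was compared between allergen and PBS arrays. The level of one probe set against another has no meaning by itself, so only the change with allergen is read. The part of basophils in the Cpa3 level was not tested. Against Cpa3, it averaged -0.18 ± 0.19 after allergen and -1.84 ± 0.64 after PBS in AJ lungs at 6 h (SD, n = 5 each). The groups did not overlap, and the change of 1.66 had p = 0.00794 in a two-sided exact permutation test, the smallest that 5 arrays against 5 allow (0.0127 adjusted over the 8 tests). The change against Cpa3 was 1.51 in AJ lungs at 24 h and 1.32 in C3H lungs at 6 h, with the same exact p and no overlap. The change in C3H lungs at 24 h was 0.54 (exact permutation p = 0.135, adjusted 0.154).

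Against Cma1 the changes were 1.69 in AJ lungs at 6 h and 1.34 in C3H lungs at 6 h, each without overlap and with an exact permutation p = 0.00794 (adjusted 0.0127). The change in AJ lungs at 24 h was 1.47, the ranges overlapped, and the exact permutation p was 0.0159 (adjusted 0.0212). For C3H lungs at 24 h it was 0.48 (exact permutation p = 0.19, adjusted 0.19). All 6 that passed did so again when any 1 array was left out, with adjusted p up to 0.0423.

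**Figure D3:**
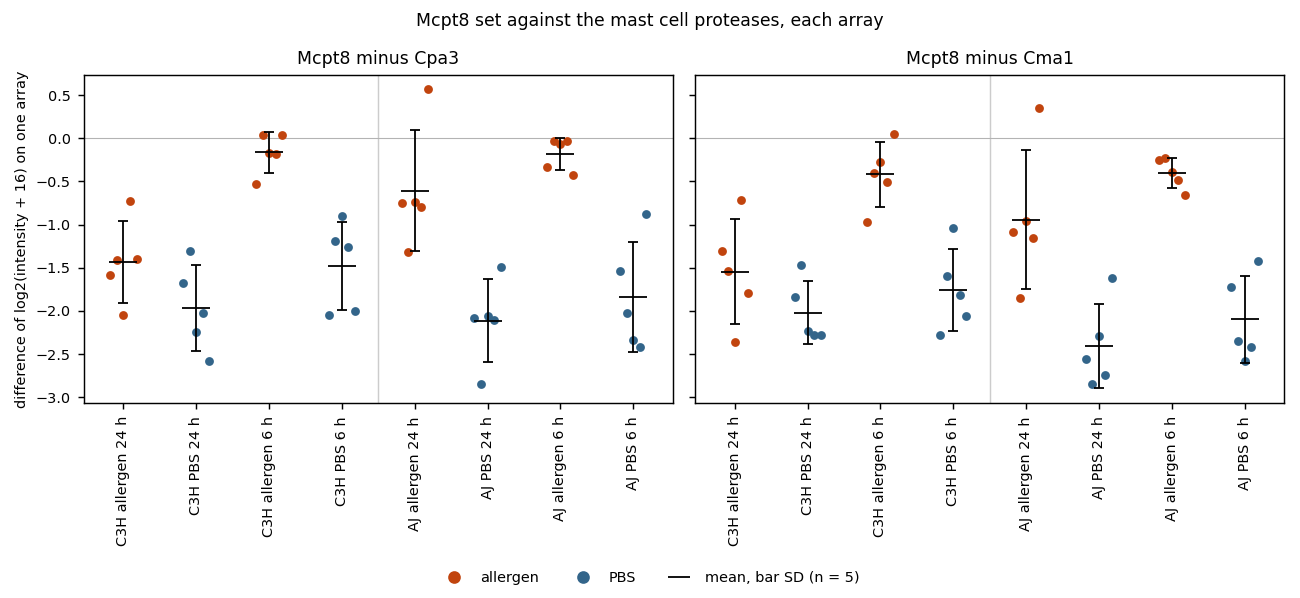
Difference of the log2(intensity + 16) levels on one array (y axis) of Mcpt8 and Cpa3 (left) and of Mcpt8 and Cma1 (right), by group, with the mean and SD (n = 5). For Cpa3, allergen arrays lie above PBS arrays without overlap in C3H lungs at 6 h and in AJ lungs at 24 h and 6 h, and they overlap in C3H lungs at 24 h.

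Hdc encodes histidine decarboxylase, the enzyme that makes histamine. Both of its probe sets carry the suffix _s_at, which marks probes shared by more than 1 transcript. On probe set 1451796_s_at AJ lungs at 6 h had 394.3, 448.9, 485.5, 493.3 and 657.5 after allergen, against 41.4, 52.5, 80.5, 82.5 and 132.0 after PBS. The lowest allergen array was far above the highest PBS array, and the difference was 2.51 ± 0.30 (adjusted p = 5.3e-08), 5.68-fold on the scale of intensity + 16. On probe set 1454713_s_at the intensities were 361.4, 421.7, 530.6, 550.3 and 590.6 after allergen, against 103.4, 119.1, 128.7, 134.1 and 214.1 after PBS. That difference was 1.72 ± 0.28 (adjusted p = 1.27e-05), again without overlap, and AJ allergen lungs at 6 h had the highest mean of the 8 groups on both probe sets, without overlap with the next group.

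At 24 h in AJ lungs the Hdc intensity on 1451796_s_at was 190.2, 223.1, 262.3, 279.5 and 379.9 after allergen, against 128.5, 175.3, 213.9, 228.0 and 294.2 after PBS. The ranges overlapped and the differences were 0.35 ± 0.30 and 0.13 ± 0.28 on the pair of probe sets (adjusted p = 0.647 and 0.894). The response at 24 h minus that at 6 h in AJ was -2.16 ± 0.42 (adjusted p = 0.00132) and -1.58 ± 0.39 (adjusted p = 0.0114). Of the 8 probe sets, 3 passed this test, the pair of Hdc and 1 of Kit, as did 4.18% of all probe sets. In PBS lungs themselves Hdc on 1451796_s_at was higher at 24 h than at 6 h in AJ by 1.29 ± 0.30 (adjusted p = 0.00935), and the step on 1454713_s_at was 0.50 ± 0.28 (adjusted p = 0.32). In that comparison of PBS lungs 2 of the 8 probe sets passed, as did 4.08% of all. The number behind that share was 924, and it was 415, 437, 598 and 571 without AJ PBS array 2 or 3 at 6 h or array 1 or 2 at 24 h.

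Hdc in C3H lungs at 6 h was uneven between arrays. On 1451796_s_at it had 53.0, 53.7, 181.4, 187.9 and 277.8 after allergen, against 35.4, 50.5, 61.5, 64.5 and 98.1 after PBS. On 1454713_s_at it had 22.6, 107.4, 162.7, 198.3 and 246.5 after allergen, against 57.3, 68.4, 75.5, 97.7 and 102.3 after PBS. On both, allergen arrays 3 and 4 were the lowest of their group and the other 3 lay above every PBS array.

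The Hdc differences in C3H lungs at 6 h were 0.91 ± 0.30 (adjusted p = 0.0658) and 0.53 ± 0.28 (adjusted p = 0.318). Without allergen array 4 they were 1.17 (adjusted p = 0.0114) and 0.99 (adjusted p = 0.000585), and without allergen array 3 the first was 1.17 (adjusted p = 0.0113). Without PBS array 2, the highest of its group, the first was 1.06 (adjusted p = 0.0418). At 24 h in C3H lungs they were 0.62 ± 0.30 (adjusted p = 0.289) and 0.08 ± 0.28 (adjusted p = 0.924).

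Hdc differed between strains after allergen at 6 h, by -1.83 ± 0.30 and -1.87 ± 0.28 for C3H minus AJ (adjusted p = 4.27e-05 and 8.73e-06), without overlap on either probe set. The strain difference of Hdc in PBS lungs did not pass, but C3H had the lower mean there too. It was -0.24 ± 0.30 and -0.68 ± 0.28 at 6 h (adjusted p = 0.761 and 0.169). At 24 h it was -0.85 ± 0.30 and -0.47 ± 0.28 (adjusted p = 0.184 and 0.583). The difference of the responses, C3H minus AJ at 6 h, was -1.60 ± 0.42 on 1451796_s_at (adjusted p = 0.0394) and -1.19 ± 0.39 on 1454713_s_at (adjusted p = 0.127). The first no longer passed when 1 of 10 arrays at 6 h was left out, with an adjusted p from 0.0532 to 0.111: C3H allergen arrays 3 and 4, C3H PBS arrays 2, 3 and 4, AJ allergen arrays 2, 3 and 4, and AJ PBS arrays 3 and 5. It also did not pass with quantile normalization (adjusted p = 0.058), a pseudocount of 1 (0.079) or a fit to those 4 groups alone (0.176). The second passed without C3H allergen array 2 (-1.42, adjusted p = 0.0338). Of the 8 probe sets, 2 passed that strain test at 6 h, 1 of Hdc and 1 of Kit (1.64% of all probe sets), and 0 passed it at 24 h (0.309% of all, or 70, which ran from 28 to 242 with 1 array left out).

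Mouse neutrophils can also express Hdc, so their markers are given beside it. Of 11 neutrophil markers measured, 1 rose in C3H lungs at 24 h, 6 in C3H lungs at 6 h, 6 in AJ lungs at 24 h and 10 in AJ lungs at 6 h. Their summed intensity in C3H lungs at 24 h was 2625.3 to 4182.7 after allergen, against 1529.7 to 1928.2 after PBS, and at 6 h it was 5065.3 to 13786.3 after allergen, against 1835.3 to 3490.9 after PBS. The sum in AJ lungs at 24 h was 4875.2 to 9696.3 after allergen, against 1408.7 to 2236.7 after PBS, and at 6 h it was 9428.1 to 12453.7 after allergen, against 1364.7 to 3459.6 after PBS. The allergen and PBS ranges overlapped in none of the 4. By probe set, 1, 6, 6 and 11 of 12 rose, in the same order, against 1.64%, 3.2%, 3.42% and 6.28% of all. No marker of the list was at 0, and Ltf, the lactoferrin gene, was the 1 that passed in none. In the strain test of the response at 6 h, 3 of the 11 neutrophil markers were lower in C3H than in AJ (Il1r2, Camp and Ngp). The others did not pass, and by probe set it was 3 of 12, against 1.64% of all in either direction. The part of neutrophils in the Hdc result was not tested.

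Kit, the receptor for stem cell factor, is carried by mast cells and also by progenitor cells and some endothelial cells. On probe set 1452514_a_at AJ lungs at 6 h had 293.1, 300.3, 325.2, 402.2 and 431.8 after allergen, against 544.4, 544.5, 630.8, 659.9 and 697.6 after PBS. All allergen arrays were below all PBS arrays, and the difference was -0.79 ± 0.13 (adjusted p = 1.7e-05). On 1415900_a_at the values were 81.6, 82.8, 93.8, 111.3 and 119.4 after allergen, against 133.4, 182.3, 228.0, 278.6 and 332.2 after PBS. That difference was -1.07 ± 0.19 (adjusted p = 4.49e-05), also without overlap, and AJ allergen lungs at 6 h had the lowest mean of the 8 groups on both probe sets.

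In C3H lungs the Kit differences on 1452514_a_at and 1415900_a_at were -0.27 ± 0.13 and -0.26 ± 0.19 at 24 h (adjusted p = 0.286 and 0.512), and 0.11 ± 0.13 and -0.12 ± 0.19 at 6 h (adjusted p = 0.762 and 0.831). Those in AJ lungs at 24 h were -0.01 ± 0.13 and -0.27 ± 0.19 (adjusted p = 0.993 and 0.519). The difference in response between strains at 6 h, C3H minus AJ, was 0.90 ± 0.18 on 1452514_a_at (adjusted p = 0.00448) and 0.95 ± 0.26 on 1415900_a_at (adjusted p = 0.0548). The difference between times in AJ, 24 h minus 6 h, was 0.79 ± 0.18 on 1452514_a_at (adjusted p = 0.007) and 0.79 ± 0.26 on 1415900_a_at (adjusted p = 0.0853). Both tests of 1415900_a_at passed without AJ PBS array 3 at 6 h, the lowest of its group (adjusted p = 0.0135 between strains and 0.0205 between times), and without C3H allergen array 2 at 24 h (0.028 and 0.0478). The test between strains also passed without AJ PBS array 4 or C3H allergen array 2 at 6 h, or C3H PBS array 1 or 2 at 24 h (0.0342 to 0.049).

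After allergen at 6 h, Kit was higher in C3H than in AJ lungs by 0.65 ± 0.13 on 1452514_a_at and 1.11 ± 0.19 on 1415900_a_at (adjusted p = 0.000743 and 6.84e-05), without overlap. On 1452514_a_at PBS lungs of AJ were lower at 24 h than at 6 h (difference -0.56 ± 0.13, adjusted p = 0.00945), as were allergen lungs of C3H (-0.44 ± 0.13, adjusted p = 0.0165). The second no longer passed without C3H allergen array 1 or 2 at 24 h or array 3 at 6 h (adjusted p = 0.0521, 0.0525 and 0.0573), with median centring (0.0603) or in a fit to those 2 groups alone (0.0598). With Hdc, 4 of the 8 probe sets differed between strains in allergen lungs at 6 h (7.77% of all probe sets did), and 2, Mcpt8 and Cma1, did so at 24 h (6.66% of all). Of the 8, 0 differed between strains in PBS lungs at 6 h (4.31% of all) or at 24 h (1.87% of all). Between times, 0 of 8 differed in PBS lungs of C3H (2.63% of all), and 0 of 8 in the response of C3H (0.61% of all). Among allergen lungs, 24 h differed from 6 h for 2 of 8 in AJ (15.7% of all) and 3 of 8 in C3H (18.3% of all). The numbers of all probe sets behind these shares were lower without single arrays: 841 in place of 1506 for the strains after allergen at 24 h (C3H allergen array 1), 550 in place of 975 for the strains after PBS at 6 h (AJ PBS array 3), and 375 in place of 595 for the times in C3H PBS lungs (array 3 at 6 h). For the response of C3H between times it was 138, and 63 to 219 with 1 array left out.

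The other mast cell markers did not pass with Kit. Of 8 mast cell markers measured (Cpa3, Cma1, Mcpt4, Tpsb2, Tpsab1, Kit, Ms4a2 and Fcer1a), only Kit passed in any of the 4 allergen comparisons, in AJ lungs at 6 h. Mcpt4, Tpsb2 and Fcer1a among these were dim, as given below. Ms4a2 and Fcer1a are also basophil markers, and with Mcpt8 they are the 3 of that list that were measured. Only Mcpt8 of these 3 passed, in AJ lungs at 6 h and 24 h and in C3H lungs at 6 h. Of 8 endothelial markers, 0 fell in C3H lungs at 24 h, 3 in C3H lungs at 6 h (Tek, Tie1 and Ramp2), 1 in AJ lungs at 24 h (Tek) and 3 in AJ lungs at 6 h (Kdr, Tek and Ramp2). Their summed intensity in C3H lungs at 6 h, where Kit did not pass, was 5572.9 to 7940.4 after allergen, against 7439.3 to 10803.4 after PBS. In AJ lungs at 6 h it was 5363.1 to 7804.8 after allergen, against 7931.8 to 9178.7 after PBS. Of the 10 endothelial probe sets, 0, 3, 1 and 3 fell in the comparisons listed, in that order (0.84%, 2.51%, 2.38% and 9.41% of all did). The part of endothelial cells in the Kit result was not tested.

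Ms4a2, the β chain of FcεRI, was dim, with a median intensity of 39.0 over the 40 arrays and 2 arrays below 16. AJ lungs at 6 h had 26.3, 38.6, 41.3, 43.0 and 43.5 after allergen, against 20.1, 36.5, 39.9, 51.7 and 55.7 after PBS. The ranges overlapped, and the difference was -0.03 ± 0.28 (95% confidence interval -0.60 to 0.54, adjusted p = 0.973). The others were -0.22 in C3H lungs at 24 h, 0.09 in C3H lungs at 6 h and -0.03 in AJ lungs at 24 h (adjusted p = 0.75, 0.933 and 0.981). The 2 arrays below 16 were AJ allergen array 1 and AJ PBS array 1, both at 24 h, at 3.59 and 4.42.

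A wider list of 54 measured genes (74 probe sets) covered IgE receptor chains, granule proteases, histamine, growth factors, transcription factors, IgE signalling and surface proteins and products of basophils. In C3H lungs at 24 h 4 of the 74 probe sets rose and 0 fell (1.64% and 0.84% of all probe sets did), and their median difference was -0.05, against -0.04 over all probe sets tested. In C3H lungs at 6 h 12 rose and 1 fell (3.2% and 2.51% of all), with a median of 0.12, against 0.01. In AJ lungs at 24 h 14 rose and 0 fell (3.42% and 2.38% of all), with a median of 0.15, against -0.003. In AJ lungs at 6 h 22 rose and 8 fell (6.28% and 9.41% of all), with a median of 0.07, against -0.05. By gene, those with a probe set that rose numbered 4, 11, 13 and 17 in these 4 comparisons, in the same order, and those with one that fell numbered 0, 1, 0 and 5. The list includes the 6 genes above.

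**Figure D4:**
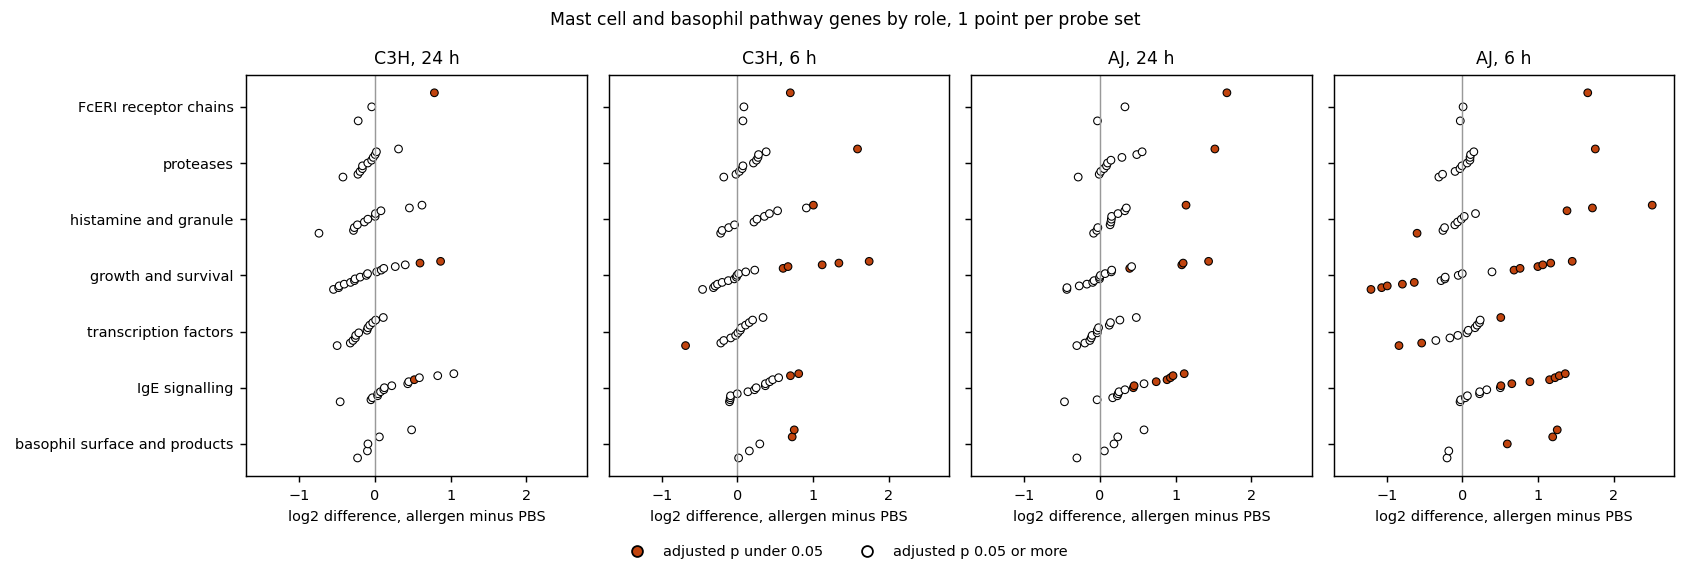
Log2 difference between allergen and PBS arrays for each probe set of the wider list, grouped by role, in the 4 pairs of groups, with filled points where the adjusted p was under 0.05. Among proteases the filled points are those of Mcpt8, and filled points are most numerous in AJ lungs at 6 h.

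Among the 10 protease genes measured, Mcpt8 was the 1 that passed in AJ lungs at 6 h, in AJ lungs at 24 h and in C3H lungs at 6 h, and 0 passed in C3H lungs at 24 h. The tryptase Tpsb2 had differences of -0.10 and -0.03 on its pair of probe sets in AJ lungs at 6 h, and the chymase Mcpt4 had 0.10 ± 0.31. These genes were dim, as were Ctsg and Mcpt1. In AJ PBS lungs at 6 h the mean log2 level was 4.792 and 5.154 for Tpsb2 and 4.77 for Mcpt4. It was 4.244 for Ctsg, 5.117 for Mcpt1 and 4.62 for Mcpt8. A fall from such levels would be hard to see. Mcpt1 and Mcpt2, proteases of mucosal mast cells, had 0.49 ± 0.22 and 0.56 ± 0.33 in AJ lungs at 24 h (adjusted p = 0.229 and 0.431).

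Of the 3 FcεRI chains, the γ chain Fcer1g rose in all 4 comparisons. Fcer1g differed by 0.79 ± 0.16 in C3H lungs at 24 h (adjusted p = 0.00474), 0.70 ± 0.16 in C3H lungs at 6 h (0.00575), 1.68 ± 0.16 in AJ lungs at 24 h (1.71e-09) and 1.66 ± 0.16 in AJ lungs at 6 h (7.1e-10). The γ chain is shared with other Fc receptors of myeloid cells, whereas Fcer1a, the IgE-binding α chain, had differences from -0.04 to 0.33 and passed in none. Fcer1a was dim, with mean log2 levels of 5.031 after allergen and 5.023 after PBS in AJ lungs at 6 h. The response of Fcer1g at 6 h was smaller in C3H than in AJ (difference -0.96 ± 0.23, adjusted p = 0.0191). Of 6 macrophage markers measured, 4 rose in C3H lungs at 24 h, 2 in C3H lungs at 6 h, 6 in AJ lungs at 24 h and 4 in AJ lungs at 6 h. Their summed intensity ran from 1598.5 to 3278.0 over all allergen lungs, against 1096.5 to 1552.1 over all PBS lungs. Of the 9 macrophage probe sets, 4, 2, 6 and 6 rose, in the order of the counts above (1.64%, 3.2%, 3.42% and 6.28% of all did). The part of macrophages and neutrophils in the Fcer1g result was not tested.

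Of the 10 IgE signalling genes, 1 rose in C3H lungs at 24 h, 2 in C3H lungs at 6 h, 6 in AJ lungs at 24 h and 4 in AJ lungs at 6 h, and 0 fell. Syk, the kinase recruited to the receptor, rose in all 4 on probe set 1418261_at, by 0.52 ± 0.14 in C3H lungs at 24 h, 0.70 ± 0.14 in C3H lungs at 6 h, 0.97 ± 0.14 in AJ lungs at 24 h and 1.22 ± 0.14 in AJ lungs at 6 h (adjusted p = 0.0435, 0.00169, 1.27e-05 and 4.56e-08). Of its other 2 probe sets, 1418262_at passed in AJ lungs at 24 h and 6 h (0.74 and 1.15) and 1425797_a_at in AJ lungs at 6 h alone (0.89), and neither passed in C3H lungs (adjusted p from 0.0769 to 0.833). The adaptor Lcp2 rose by 1.36 ± 0.13 in AJ lungs at 6 h on probe set 1418641_at (adjusted p = 5.67e-10), while its other probe set, 1418642_at, had 0.07 ± 0.16 (adjusted p = 0.868). Of the 15 probe sets of the 10 genes, 1, 2, 7 and 7 rose, in the order of the counts above (1.64%, 3.2%, 3.42% and 6.28% of all did). These signalling genes are also expressed by other leukocytes.

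Among growth and survival genes, the ligand of Kit, Kitl, fell with its receptor in AJ lungs at 6 h on 3 of 4 probe sets, with differences of -0.64 ± 0.15, -0.99 ± 0.30 and -1.21 ± 0.28 (adjusted p = 0.00267, 0.0177 and 0.00146). The fourth probe set of Kitl had -0.23 ± 0.17 (adjusted p = 0.438), and Kitl passed in none of the other 3 comparisons. Csf2rb, the β chain of the receptors for IL-3, IL-5 and GM-CSF, rose in all 4, from 0.87 ± 0.20 in C3H lungs at 24 h (adjusted p = 0.0143) to 1.44 ± 0.20 in AJ lungs at 24 h (adjusted p = 4.7e-06). Il33, an epithelial cytokine that acts on both cell types, rose in the 3 comparisons in which Mcpt8 rose. Il33 had 0.40 ± 0.19 in C3H lungs at 24 h (adjusted p = 0.287), 1.74 ± 0.19 in C3H lungs at 6 h (5.22e-08), 1.10 ± 0.19 in AJ lungs at 24 h (0.000141) and 1.45 ± 0.19 in AJ lungs at 6 h (4.21e-07). For Il33 the difference between times in C3H passed, at -1.34 ± 0.27 (adjusted p = 0.0121). Il3, a growth factor of basophils, had differences between -0.01 and 0.02 and passed in none.

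Of 5 genes measured for surface proteins and products of basophils, 3 rose in AJ lungs at 6 h (Il18rap, Il4 and Il13). In C3H lungs at 6 h 2 rose (Il4 and Il13), and 0 passed at 24 h in either strain. Ccr3 and Itga2 passed in none of the 4 comparisons. The 5 genes have 5 probe sets, of which 3 rose in AJ lungs at 6 h (6.28% of all did) and 2 in C3H lungs at 6 h (3.2% of all). Il4 and Il13, cytokines that basophils and T cells secrete, thus rose at 6 h in both strains. At that time Il4 differed by 0.75 ± 0.17 in C3H lungs and 1.25 ± 0.17 in AJ lungs (adjusted p = 0.005 and 9.08e-07), and Il13 by 0.72 ± 0.21 in C3H lungs and 1.19 ± 0.21 in AJ lungs (adjusted p = 0.0309 and 5.03e-05). At 24 h Il4 had 0.24 ± 0.17 in AJ lungs (adjusted p = 0.566), where Mcpt8 passed, and its response in AJ was lower at 24 h than at 6 h (difference -1.02 ± 0.24, adjusted p = 0.00915). Of 7 T and NK cell markers, Cd3d and Cd3g rose in AJ lungs at 6 h and at 24 h, Cd3d in C3H lungs at 24 h, and 0 in C3H lungs at 6 h. The listed NK cell receptor gene Klrb1c was matched through a synonym to 4 probe sets annotated as Klrb1b. On 1 of these the level fell in AJ lungs at 6 h (-0.40 ± 0.13, adjusted p = 0.0334). Of the 12 T and NK cell probe sets, 2 rose in AJ lungs at 6 h (6.28% of all did) and 2 at 24 h (3.42%). In C3H lungs 1 rose at 24 h (1.64% of all) and 0 at 6 h (3.2%). Of 4 eosinophil markers measured, which share some products with basophils, only Il5ra rose, in C3H lungs at 6 h, and their summed intensity stayed between 50.0 and 117.1. These markers were dim, and 1 read below 16 on every array of C3H allergen lungs at 24 h and of C3H PBS lungs at 6 h. Ear1 and Ear2 of that list had no probe set of their own symbol. The part of T cells, NK cells and eosinophils in the Il4, Il13 and Mcpt8 results was not tested.

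Granule and histamine genes other than Hdc gave 1 that rose with Mcpt8 and 1 that fell. Srgn, the proteoglycan core of granules in many leukocytes, rose by 1.003 ± 0.16 in C3H lungs at 6 h, 1.14 ± 0.16 in AJ lungs at 24 h and 1.38 ± 0.16 in AJ lungs at 6 h (adjusted p = 3e-05, 2.55e-06 and 1.6e-08). Hnmt, which inactivates histamine, fell by 0.60 on the log2 scale in AJ lungs at 6 h (adjusted p = 0.00456). The histamine receptors Hrh1, Hrh2, Hrh3 and Hrh4 passed in none of the 4. Of 6 transcription factors measured, 1 rose (Runx1, on 1 probe set) and 2 fell (Gata2 and Cebpa) in AJ lungs at 6 h. Only Cebpa passed in C3H lungs at 6 h, and 0 passed at 24 h in either strain. Of 12 transcription factor probe sets, 1 rose and 2 fell in AJ lungs at 6 h (6.28% and 9.41% of all did). In C3H lungs at 6 h 1 of the 12 fell (2.51% of all). Gata2, needed by both cell types, fell on 1 of 2 probe sets (-0.54 ± 0.12, adjusted p = 0.00107). Cebpa, which favours basophils over mast cells, fell at 6 h in C3H (-0.69 ± 0.16, adjusted p = 0.00449) and in AJ lungs (-0.84 ± 0.16, adjusted p = 0.000114). The part of other lung cells in these results was not tested.

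Within groups, Cpa3 and Cma1 varied together from array to array. After each group's mean was subtracted, Cpa3 and Cma1 correlated over the 40 arrays with Pearson r = 0.52 and Spearman rho = 0.54 (within-group permutation p = 0.00043 and 0.00035, adjusted over 15 pairs 0.00645 and 0.00262). Without the 2 arrays farthest from the median r was 0.47, and it was 0.41 over the 20 C3H arrays and 0.62 over the 20 AJ arrays. Cma1 and Ms4a2 had r = 0.33 and rho = 0.56 (adjusted permutation p = 0.193 and 0.00262), and Cpa3 and Ms4a2 had r = 0.41 and rho = 0.45 (adjusted permutation p = 0.0862 and 0.0319). Mcpt8 had r = -0.20 with Cpa3 and -0.37 with Cma1 (adjusted permutation p = 0.362 and 0.0862), and -0.36 with Hdc (adjusted permutation p = 0.0862). Of the 15 pairs, 1 passed by Pearson's r and 3 by Spearman's rho. These deviations share whatever differs between arrays as a whole.

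**Figure D5:**
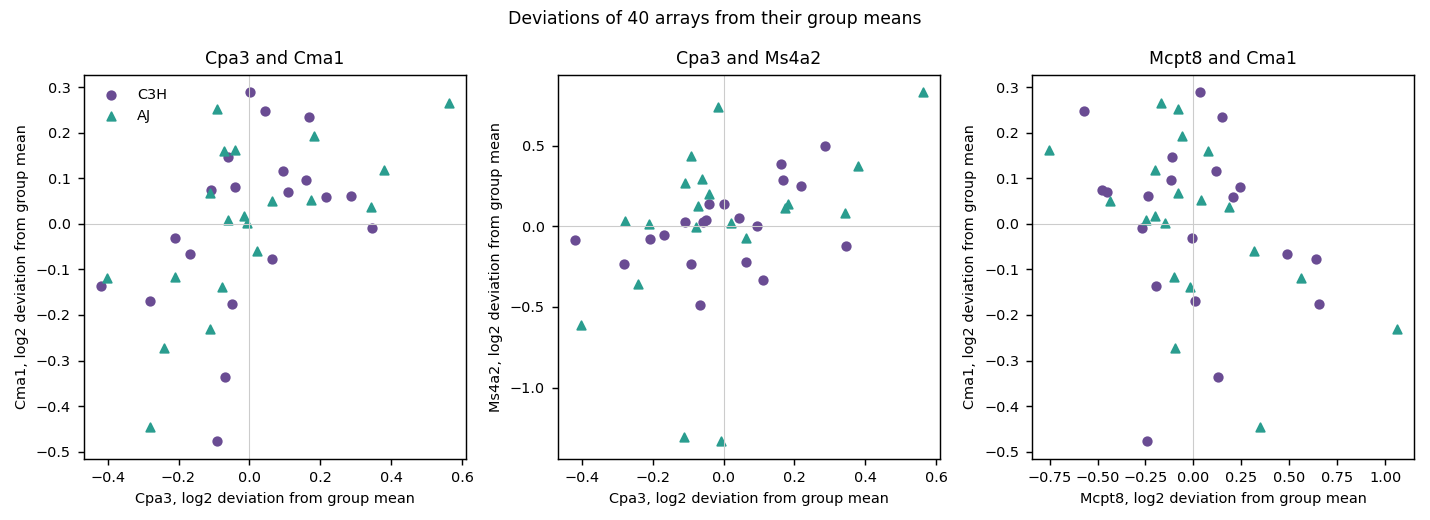
Deviation of each of the 40 arrays from its group mean, on the log2(intensity + 16) scale on both axes, for Cpa3 and Cma1 (left), Cpa3 and Ms4a2 (middle) and Mcpt8 and Cma1 (right), with circles for C3H and triangles for AJ. Pearson r is 0.52, 0.41 and -0.37, and 2 AJ arrays with low Ms4a2 stand apart in the middle panel.

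The paired probe sets of 1 gene set a scale for these values. The levels of the Hdc pair correlated at 0.85 over the 40 arrays and their deviations from group means at 0.57. For the Kit pair the values were 0.65 and 0.17.

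The genes whose levels followed each member most closely were sought among 8467 genes with a mean log2 level of at least 6, by Pearson r over the 40 arrays, group differences included. For Mcpt8 they were Il4ra, Gadd45g and Ccl7 (0.84 each), then Ccl11 and Socs3 (0.83 each). For Hdc they were Crlf2 (0.76), Usp18 and Tpd52 (0.74 each). The gene nearest to Cpa3 was Cma1 (0.65), and those nearest to Cma1 were Inava (0.72) and Dlx4 (0.71). For Kit they were Tmcc2 (0.73) and Ssx2ip (0.72). All points share the 8 groups, so these values describe the arrays and carry no test.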

How the data were processed

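RNA from 40 mouse lung samples was measured on one-colour arrays, in 8 groups of 5. The authors deposited 1 linear intensity per probe set and array. The software behind the values is not given in the sources used here. The 40 deposited intensity columns had trimmed means (2% of probe sets dropped at each end) of 150.04 to 150.05, and 0 values were at or below 0.

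Control probe sets (64 of 22690) were left out. Of the other 22626, 20380 had 1 gene symbol in the platform annotation, 691 had several and 1555 had none. Levels were taken as log2(intensity + 16). This understates the change of dim probe sets, and 18.2% of the values lay below 16. With limma 3.58.1 (R 4.3.3) the means of the 8 groups were estimated in 1 model over the 40 arrays (32 residual and 4.22 prior degrees of freedom), with 16 contrasts, each adjusted by Benjamini-Hochberg over all probe sets. The script was tested on simulated data.

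All probe sets of the 6 genes are named. Genes of the wider list could be named where a probe set passed in an allergen comparison, and others are named to account for a family. For each gene but Ms4a2 the 5 genes of most similar pattern were sought, and some are printed. The genes and lists were chosen with earlier results of these data known. Prss34, Slc18a2, Il1rl1, Lyn, Cd200r3, Mrgprb1, Mrgprb2, Adora3, Cd63, Cma2 and Mcpt9 of the wider list had no probe set of their own symbol and were not analysed here. The settings varied were the pseudocount (1 and 64), quantile normalization, median centring, a fit without the dimmest 25% of probe sets, the brightest probe set of each gene, only the groups of a contrast, the replicate number as a block, and leaving out each array.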

Additional observations from a re-analysis of the deposited data

Results flagged for a closer look

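Among the 64 combinations of a probe set and a group of 5, 4 held an array that stood apart from the others by Dixon's test, and chance gives about 1 in 20. Hdc on 1451796_s_at read 109.9 on C3H allergen array 2 at 24 h, where the other 4 lay between 180.2 and 196.8. Kit on 1415900_a_at read 95.0 on the same array, and the other 4 lay between 183.1 and 194.3. Cpa3 read 122.0 on AJ PBS array 2 at 24 h, against 61.0 to 72.5 on the others. Ms4a2 read 26.3 on AJ allergen array 2 at 6 h, and the others lay between 38.6 and 43.5.

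Allergen responses that differed between strains or times in limma's interaction tests were those of Hdc and Kit. At 6 h the C3H minus AJ difference was -1.60 for Hdc on 1451796_s_at (adjusted p = 0.0394) and 0.90 for Kit on 1452514_a_at (0.00448). That of Hdc no longer passed in 13 of 48 alternatives. The other probe set did not pass for either gene (adjusted p = 0.127 for Hdc and 0.0548 for Kit). In AJ lungs the 24 h minus 6 h difference was -2.16 for Hdc on 1451796_s_at, -1.58 for Hdc on 1454713_s_at and 0.79 for Kit on 1452514_a_at. Kit on 1415900_a_at had 0.79 and did not pass (adjusted p = 0.0853).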

How the results depend on the processing

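Of 128 member differences, 25 passed, and 19 of these passed under every alternative that tested their probe set and with each array left out. The other 6 lost the call under at least 1, and 0 of the 25 changed sign. Of the rest, 11 passed under some alternative, and 32 changed sign under some, none of them over 0.26 in size. With the brightest probe set of each gene, which leaves 6 members, the members that passed numbered 3 in place of 5 for the AJ response at 6 h. With the same choice they numbered 1 in place of 2 for the strain difference in response at 6 h, for 24 h against 6 h in AJ PBS lungs and in AJ allergen lungs, and 2 in place of 4 for C3H against AJ after allergen at 6 h. Without the dimmest probe sets Mcpt8 was not tested, which left 0 in AJ at 24 h and 1 for C3H against AJ after allergen at 24 h. Quantile normalization and a pseudocount of 1 each gave 1 in place of 2 for the strain difference at 6 h and for 24 h against 6 h in AJ allergen lungs. A pseudocount of 64 gave 1 in place of 0 for the time difference in C3H. Median centring gave 1 in place of 3 for 24 h against 6 h in C3H allergen lungs. Fits to only the groups of a contrast gave 1 there too, 1 in place of 2 for the strain difference at 6 h, 0 in place of 2 for C3H against AJ after allergen at 24 h, 1 in place of 0 for C3H against AJ PBS lungs at 24 h and 1 in place of 0 for 24 h against 6 h in C3H PBS lungs. The cause was not tested.

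With the replicate number as a block, 2 members in place of 1 passed in C3H at 6 h. The numbers did not pair the samples, since same-numbered arrays of different groups correlated at -0.27 to 0.33 in their deviations (median 0.000568 over 140 pairs). With 1 array left out, the members that passed ranged from 1 to 3 in C3H at 6 h, from 1 to 4 for the strain difference at 6 h, from 0 to 1 for it at 24 h, and from 0 to 1 for the time difference in C3H. They ranged from 0 to 1 for C3H against AJ in PBS lungs at 6 h and for 24 h against 6 h in C3H PBS lungs. Among allergen lungs, 24 h against 6 h ranged from 1 to 2 in AJ and from 1 to 3 in C3H. The pairs of genes that passed by Pearson's r ranged from 1 to 3. Over all probe sets, leaving out 1 array moved the number that passed by over 1.5 times in 8 comparisons. In C3H at 24 h (561) it ran from 203 to 925, moved by C3H allergen arrays 1, 2 and 4 and PBS arrays 1, 3, 4 and 5 at 24 h. For the strain difference at 24 h (70) it ran from 28 to 242, moved at 24 h by C3H allergen arrays 1 and 4, C3H PBS arrays 1, 3 and 5, AJ allergen array 2 and AJ PBS arrays 4 and 5. For the time difference in C3H (138) it ran from 63 to 219, moved by C3H allergen arrays 1 and 4 and PBS arrays 3, 4 and 5 at 24 h and by allergen array 1 and PBS arrays 1 and 2 at 6 h. The other 5 are given with their shares above. Fits to only the groups of a contrast gave 457 in place of 1292 in C3H at 6 h, 233 in place of 561 in C3H at 24 h, 151 in place of 371 for the strain difference at 6 h and 47 in place of 138 for the time difference in C3H. They gave 330 in place of 975 for the strains after PBS at 6 h, 1143 in place of 1758 for the strains after allergen at 6 h, and 404 in place of 924 and 263 in place of 595 for the times in AJ and C3H PBS lungs. A pseudocount of 1 gave 46 in place of 70 and 61 in place of 138 for the strain difference at 24 h and the time difference in C3H. The brightest probe set of each gene, which tests fewer, gave 2358 in place of 3551 in AJ at 6 h, 552 in place of 975 and 239 in place of 424 for the strains after PBS at 6 h and 24 h, 1154 in place of 1758 and 884 in place of 1506 for the strains after allergen, and 2581 in place of 4137 for the times in C3H allergen lungs.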
